A study of Mus musculus with 24 samples.

Results

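Prostaglandins are made in steps: a cyclooxygenase turns arachidonic acid, released from membrane lipids, into prostaglandin H2, terminal synthases turn that into the single prostaglandins, and receptors on the cell surface read them. Ptgs1 and Ptgs2 encode the cyclooxygenases COX1 and COX2. Ptges, Ptges2 and Ptges3 encode prostaglandin E synthases, Ptgds encodes the lipocalin-type prostaglandin D synthase, and Ptger1, Ptger2, Ptger3 and Ptger4 encode the prostaglandin E receptors EP1, EP2, EP3 and EP4. In the brain COX2 is known as an enzyme of excitatory neurons whose transcript follows synaptic activity, COX1 is known from microglia, and lipocalin-type prostaglandin D synthase from oligodendrocytes, leptomeninges and choroid plexus. These 10 genes were taken by symbol from the 53379 genes of the count table, and all 10 had enough counts to be tested.

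The mice were adult male C57/BL6N animals of 8 weeks on arrival and 4 more weeks of acclimatization. Kainic acid (KA) or saline (sham, SH) was injected into the deep cortex beside the right hippocampus, and the right hippocampi were taken 24 hours after status epilepticus. KA mice without convulsive seizures had been excluded, and both treatments shared the craniotomy, the anesthesia with medetomidine and ketamine, its reversal with atipamezole, and buprenorphine. The 8 mice of each treatment were combined into 3 pools, 1 of 4 mice (replicate 1) and 2 of 2 mice (replicates 2 and 3), and nuclei of each pool were sorted by the neuronal antigen NeuN into NeuN+ nuclei (neurons) and NeuN- nuclei (glia). That gave 12 libraries of nuclear RNA, 3 for each of SH neurons, KA neurons, SH glia and KA glia. NeuN- is a mixture of all nuclei without the antigen, not a single cell type. In such bulk libraries fewer nuclei of a type and less RNA per nucleus cannot be told apart.

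Total counts were between 7769400 and 40364768 per library. The replicate 3 libraries had fewer genes with a count than the others of their group, between 36165 and 42160, and SH glia replicate 1 and KA glia replicate 2 were amplified from 0.05 ng RNA with 15 PCR cycles in place of 1 ng and 10 cycles. Levels are given as CPM, the count of a gene scaled to the size of its library after TMM normalization, and logFC is the log2 fold change of the edgeR quasi-likelihood fit of all 12 libraries. A gene was called at a false discovery rate (FDR, Benjamini-Hochberg over the 37598 genes tested) under 0.25. Of 10 neuronal markers, 9 were higher in SH neurons than in SH glia, and 9 of 10 astrocytic, 9 of 10 microglial and 8 of 8 oligodendrocytic markers were higher in SH glia, as were 5 of 5 markers of oligodendrocyte precursors, 4 of 5 pericytic, 1 of 7 endothelial and 1 of 6 tested leukocyte markers. Of those last 4 lists only 1 precursor marker was called between KA and SH, down in glia. The sum of the neuronal markers was still 509 to 1440 CPM in SH glia and 355 to 1188 CPM in KA glia, against 4122 to 7104 CPM in neurons.

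The cyclooxygenase genes are the members on which the comparisons turn, so the 250 bases before their transcription starts are given (RefSeq, GRCm38.p6, forward strand for both). Capitals mark the only match, before the start, to any of 6 motifs searched on both strands. It is a C/EBP motif, TTNCGCAA, at bases -69 to -62 of Ptgs2, which 0.798% of 32851 windows of the same length hold. The windows ran from 250 bases before to 50 bases after each start, and the other motifs were the TATA box core TATAA, the CRE half-site TGACG, the E-box CACGTG, the AP-1 motif TGANTCA and an NF-kB motif.
Ptgs2, chr1:150099781-150100030: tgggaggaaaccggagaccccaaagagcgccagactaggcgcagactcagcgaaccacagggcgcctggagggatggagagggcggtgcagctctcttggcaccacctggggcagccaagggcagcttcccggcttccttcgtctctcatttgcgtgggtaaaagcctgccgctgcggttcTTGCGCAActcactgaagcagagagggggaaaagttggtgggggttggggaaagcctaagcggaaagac
Ptgs1, chr2:36230176-36230425: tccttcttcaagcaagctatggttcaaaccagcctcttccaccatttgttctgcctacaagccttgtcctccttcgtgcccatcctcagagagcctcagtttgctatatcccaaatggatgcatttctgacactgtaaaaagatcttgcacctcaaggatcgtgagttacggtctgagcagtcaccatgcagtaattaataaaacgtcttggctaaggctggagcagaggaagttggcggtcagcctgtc
The stretch before Ptgs2 is richer in G and C, at 61.6%, than the stretch before Ptgs1, at 48%, and no motif of the 6 was found in the Ptgs1 window. After the start, Ptgs2 also holds a CRE half-site at bases 14 to 18, which 20.8% of windows hold, overlapping an E-box at bases 17 to 22, which 7.15% hold. Of the 9 members with a promoter in the RefSeq table, 4 held any of these motifs: beside Ptgs2, these were Ptgds with AP-1 (7.81% of windows), Ptges2 with an E-box and Ptges3 with a CRE half-site. The share of all windows with any of the 6 was not computed, so the count of 4 has no background beside it. TATAA is in 24.9% and the NF-kB motif in 1.63% of windows, and neither was found in a member. A match describes the letters of these windows and not a bound site.

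In neurons, Ptgs2 was the only member called between KA and SH in the fit of all 12 libraries, and it was upregulated. That is 1 of 10 members up, where 0.279% of all tested genes were called up, and 0 of 10 down, where 0.0612% were. In glia again Ptgs2 alone was called, 1 of 10 up against 0.442% of all genes and 0 of 10 down against 0.306%. The median logFC of the members was 0.71 in neurons and 0.16 in glia, beside 0 and 0.14 over all genes tested.

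**Figure D1:**
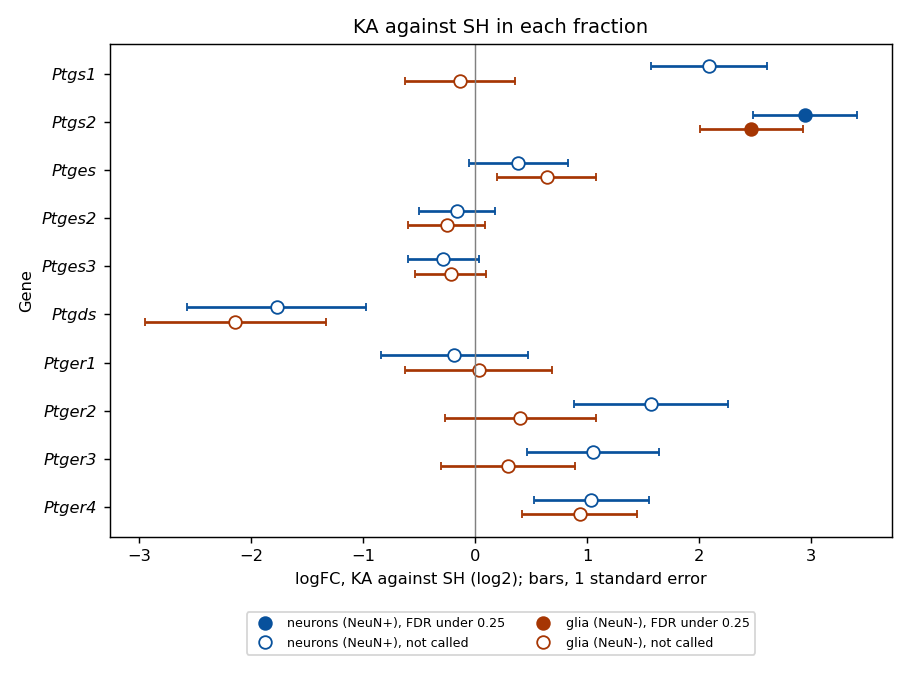
The log2 fold change (logFC) of KA against SH for each of the 10 genes, with neurons (NeuN+) in blue and glia (NeuN-) in brown; bars are 1 standard error, filled points have an FDR under 0.25. Only the Ptgs2 points, at 2.94 and 2.47, are filled, and the Ptgs1 point of neurons lies at 2.09 while that of glia lies at -0.14.

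Ptgs2 (ENSMUSG00000032487, GRCm38 chr1:150100031-150108227, forward strand) was at 38.7, 38.5 and 62.3 CPM in the SH neurons replicates 1, 2 and 3, and at 403, 338 and 330 CPM in KA neurons. Every KA library of neurons thus lay above every SH library. The logFC was 2.94 (standard error 0.47, FDR 0.0335), a 7.69-fold higher level, and Ptgs2 had rank 10 by p among the genes tested. The same-numbered KA and SH libraries differed by 3.38, 3.13 and 2.41 on the log2 scale. The call was lost in 1 of the 6 fits that leave out a library of neurons, that without SH neurons replicate 1 (FDR 0.315, logFC between 2.82 and 3.21 over the 6 fits).

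In glia Ptgs2 was lower, at 3.86, 10.4 and 8.61 CPM in SH, and was at 19.7, 47.5 and 59.8 CPM in KA. The groups did not overlap, and the highest KA glia library was below the highest SH neurons library. The logFC was 2.47 (standard error 0.46, FDR 0.0438), a 5.52-fold higher level. The increase in neurons exceeded that in glia by a logFC of 0.48 (standard error 0.62, FDR 1), which is within its error. In the SH libraries alone Ptgs2 was higher in neurons than in glia, with a logFC of 2.60 (FDR 0.00153).

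Neuronal markers were also found in the NeuN- libraries, and their level is given beside that of Ptgs2. Within the same pool, the level in NeuN- as a percent of that in NeuN+ was 9.98, 27.1 and 13.8 for Ptgs2 in the SH pools and 4.89, 14 and 18.1 in the KA pools. The sum of the 10 neuronal markers stood at 10.9, 27.9 and 20.3% in SH and 8.62, 15.1 and 23.1% in KA. In 6 of 6 pools the percent of Ptgs2 was below that of the neuronal markers. The summed level of these markers in NeuN- was lower in KA than in SH in each same-numbered pair, and 1 of the 10 was called down. Ptgs2 itself was 7.69-fold higher in KA neurons, and each percent is taken of the NeuN+ level of the same pool, which includes this rise. The neuronal part of the glial value of Ptgs2, and of its glial call, was not tested. The glial call was also lost without KA glia replicate 2 (FDR 0.272, logFC between 2.12 and 2.77 over the 6 fits that leave out a glial library), without both libraries of low RNA input (logFC 2.03, FDR 0.906) and without the 4 replicate 3 libraries (logFC 2.22, FDR 0.519).

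**Figure D2:**
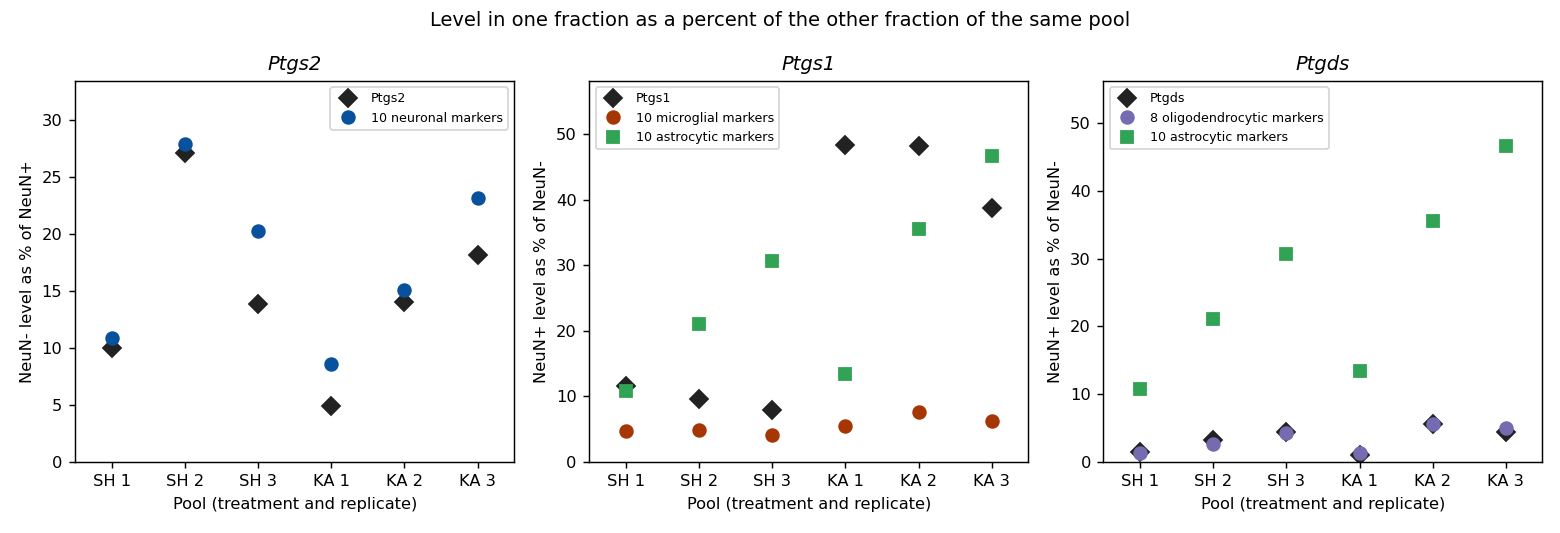
Level in one sorted fraction as a percent of the other fraction of the same pool, for Ptgs2 (NeuN- over NeuN+, left) and for Ptgs1 and Ptgds (NeuN+ over NeuN-, middle and right), beside the sums of marker genes; each x position is 1 pool. Ptgs2 lies below the neuronal markers in all 6 pools, and Ptgds lies within 1 percentage point of the oligodendrocytic markers. Ptgs1 lies far above the microglial markers in the KA pools (38.8 to 48.4% against 5.53 to 7.57%). The astrocytic markers lie at 13.4 to 46.6% in the KA pools, above Ptgs1 in KA replicate 3.

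Ptgs1 (ENSMUSG00000047250, chr2:36230426-36252272, forward strand) had the opposite distribution in the SH libraries. It was at 7.32, 6.53 and 11.9 CPM in SH neurons and at 62.9, 68.6 and 150 CPM in SH glia, a logFC of -3.45 between neurons and glia (standard error 0.54, FDR 0.000651). In KA neurons it was at 21.0, 30.6 and 57.7 CPM, above every SH neurons library. The logFC of 2.09 in neurons (standard error 0.52, p 0.00091) had an FDR of 0.259 in edgeR, just over the threshold, and is therefore not counted as called. The paper, which treated neurons and glia separately and tested fewer genes, lists Ptgs1 among the genes upregulated in neurons at the same threshold. The same-numbered pairs differed by 1.51, 2.21 and 2.27 on the log2 scale.

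That call depended on the fit. With a block for the replicate, Ptgs1 was called in neurons (logFC 2.02, FDR 0.000281). The block called 1.94% of all genes up in neurons, where the fit without it called 0.279%. Ptgs1 was also called with separate fits of the cell types (FDR 0.0241, 1.28% of all genes called up), with upper quartile factors (0.0309, 0.606%) and with only genes of at least 10 counts in every library (0.0355, 1.77%). DESeq2 (0.02, 1.27%) and edgeR 4 (0.196, 0.516%) called it as well. With RLE size factors, no filter on low counts or all gene IDs, the count of members called up in neurons stayed at 1. It was also 1 at an FDR of 0.05 and without the 4 replicate 3 libraries. Of the 6 fits that leave out a library of neurons it was called in 1, that without KA neurons replicate 1, and the FDR ranged from 0.158 to 1.

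In glia Ptgs1 was at 43.5, 63.4 and 149 CPM in KA, overlapping the SH values, with a logFC of -0.14 (FDR 1). The replicate 3 libraries were the highest of their group for Ptgs1 in all 4 groups. The difference of the KA effect between neurons and glia was a logFC of 2.22 (standard error 0.71, p 0.00618, FDR 1). No gene was called for this difference (0% of those tested), and 1 of the 10 members had an unadjusted p under 0.05. With a block by pool Ptgs1 was called for the difference (logFC 2.23, FDR 0.0084), as the only member, where 0.314% of all genes were called as larger in neurons.

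Ptgs1 in NeuN+ amounted to 11.6, 9.52 and 7.94% of its NeuN- level in the SH pools and to 48.4, 48.2 and 38.8% in the KA pools. The 10 microglial markers stood at 4.72, 4.90 and 4.13% in SH and at 5.53, 7.57 and 6.27% in KA. Their summed level in neurons was 56.6 to 111 CPM in SH and 47.8 to 113 CPM in KA, and 0 of the 10 were called (3 with a positive and 7 with a negative logFC, 1 with an unadjusted p under 0.05, a lower one). The 10 astrocytic markers stood at 10.8 to 30.7% in SH and 13.4 to 46.6% in KA, and the 7 endothelial markers, which were sparse in both fractions, at 38.5 to 95.6% and 41.7 to 80.6%. The part of these cells in the level of Ptgs1 was not tested.

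Per kilobase of exon, which allows levels of different genes to be compared, Ptgs2 made up 81.6 to 83.3% of the sum of both cyclooxygenase transcripts in SH neurons and 82.9 to 94.2% in KA neurons. In SH glia it made up 4.65 to 11.4%, and in KA glia 25.4 to 38.8%. The share of Ptgs2 in glia did not overlap between the treatments. It includes any neuronal RNA in the NeuN- libraries, the part of which was not tested. In neurons the SH and KA ranges overlapped.

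**Figure D3:**
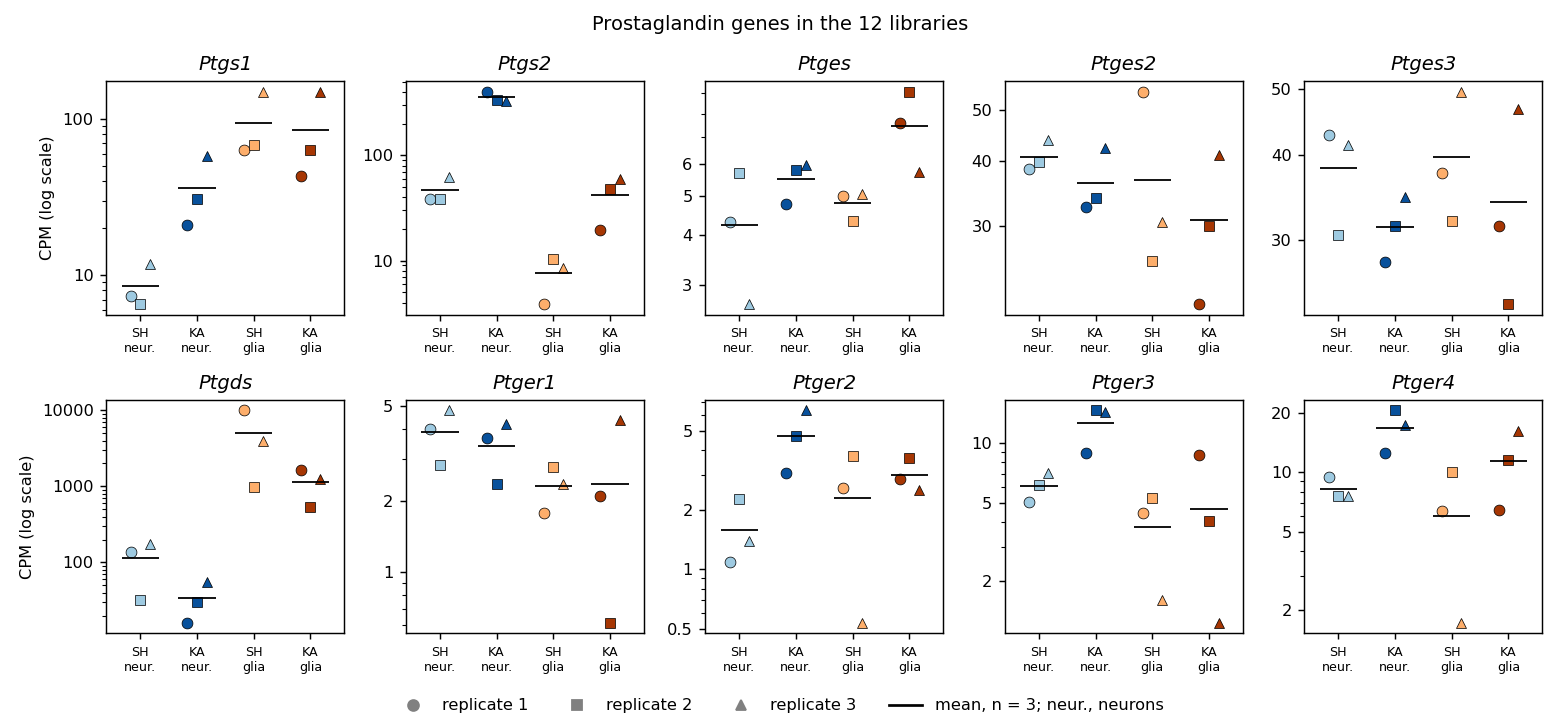
CPM on a log scale in each of the 12 libraries for the 10 genes; symbols mark the replicate, lines the mean of the 3 libraries of a group. Ptgs2 is separated between SH and KA in neurons and in glia, Ptgs1, Ptger2, Ptger3 and Ptger4 in neurons, and Ptges in glia.

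Of the 3 prostaglandin E synthases 0 were called between KA and SH in neurons or in glia by edgeR or DESeq2, and 0 had an unadjusted p under 0.05. Ptges, the membrane-bound microsomal enzyme that is known to be inducible (chr2:30889471-30929863, reverse strand), was at 4.30, 5.69 and 2.69 CPM in SH neurons and 4.78, 5.80 and 5.96 CPM in KA neurons. In glia it was at 4.98, 4.33 and 5.05 CPM in SH and at 7.56, 9.06 and 5.72 CPM in KA. The glial groups did not overlap, but the logFC of 0.64 had an FDR of 1. Counts of Ptges were low, between 56 and 237 reads per library.

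Ptges2, a second membrane-associated synthase (chr2:32395896-32405772, forward strand), was at 38.6 to 43.8 CPM in SH neurons, 32.6 to 42.2 in KA neurons, 25.7 to 54.2 in SH glia and 21.3 to 41.0 in KA glia. Ptges3, the cytosolic synthase that is also the p23 co-chaperone of Hsp90 (chr10:128058954-128077272, forward strand), was at 30.6 to 42.8, 27.9 to 34.7, 32.1 to 49.5 and 24.2 to 46.7 CPM in the same order. Over all 12 libraries the highest level of Ptges3 was 2.05 times and that of Ptges2 2.54 times the lowest, the smallest ratios among the members. For Ptgs2 this ratio was 105. Neither gene differed between neurons and glia of the SH mice beyond the threshold (Ptges2 FDR 0.928, Ptges3 FDR 0.975).

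Ptgds (ENSMUSG00000015090, chr2:25466709-25470046, reverse strand) was the member with the highest levels and the widest spread. In SH glia it was at 10052, 991 and 3996 CPM and in KA glia at 1637, 529 and 1244 CPM. The highest value came from SH glia replicate 1, a library of low RNA input, and the groups overlapped because SH glia replicate 2 was below 2 of the KA libraries. The logFC was -2.14 (standard error 0.81, p 0.017, FDR 0.727). In neurons the levels were 139, 32.5 and 175 CPM in SH and 16.1, 29.8 and 55.3 CPM in KA, with a logFC of -1.77 (standard error 0.80, FDR 1).

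Each KA library held less Ptgds than the SH library of the same number, by 2.62, 0.91 and 1.68 in glia and by 3.10, 0.12 and 1.66 in neurons on the log2 scale. With the replicate block Ptgds was called down in glia (logFC -1.73, FDR 0.0197), where the block called 4.17% of all genes down. It was also called down in neurons with the block (logFC -1.62, FDR 0.0646), beside 1.11% of all genes, and with separate fits of the cell types (FDR 0.231, 0.772% of all genes called down). In glia DESeq2 (FDR 0.0576, 3.23%) and the fit of genes with at least 10 counts in every library (FDR 0.241, 4.08%) called it down too. In glia without both libraries of low RNA input the logFC was -1.07 (FDR 1).

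Oligodendrocytic markers are given beside Ptgds. The summed level of the 8 markers was 14283 to 29772 CPM in SH glia and 7488 to 14034 CPM in KA glia, without overlap. In neurons their sum was 327 to 1280 CPM in SH and 145 to 703 CPM in KA, with overlap. All 8 markers had a negative logFC in both fractions and 0 were called (3 in glia and 0 in neurons had an unadjusted p under 0.05). Ptgds in NeuN+ was 0.986 to 5.64% of its NeuN- level, and these markers were at 1.26 to 5.55%. The 5 markers of oligodendrocyte precursors summed to 849 to 1564 CPM in SH glia and to 378 to 609 CPM in KA glia, also without overlap. The 5 choroid plexus markers summed to 187 CPM in SH glia replicate 1 and to at most 39.5 CPM in the other glial libraries. Of these 187 CPM, 149 were of Ttr alone. The 6 leptomeningeal markers summed to 35.1 to 81.8 CPM in glia. The part of these cells in the values of Ptgds was not tested. Between the fractions of the SH mice, Ptgds was higher in glia with a logFC of -5.44 (neurons against glia, FDR 0.00122).

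Among the prostaglandin E receptors, 0 of 4 were called in neurons or in glia by edgeR without a block or by DESeq2. At an unadjusted p under 0.05 in edgeR there were 1 and 0, while 3 of the 4 did not overlap between SH and KA neurons. In neurons 5 of the 10 members were higher in every KA than in every SH library, where 5.27% of all genes were, and none were lower, where 4.45% were. The 5 were both cyclooxygenases and Ptger2, Ptger3 and Ptger4. In glia 2 of 10, Ptgs2 and Ptges, were higher without overlap, against 3.61% of all genes, and none were lower, against 3%.

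Ptger2, whose receptor EP2 raises cyclic AMP through Gs (chr14:44988195-45003820, forward strand), was at 1.09, 2.28 and 1.39 CPM in SH neurons and at 3.07, 4.72 and 6.36 CPM in KA neurons. Its logFC was 1.57 (standard error 0.69, p 0.0357, FDR 1). With the replicate block Ptger2 was called (logFC 1.58, FDR 0.203), so that 3 of 10 members were called up in neurons by that fit, against 1.94% of all genes. In glia it was at 2.57, 3.75 and 0.538 CPM in SH and 2.87, 3.63 and 2.51 CPM in KA, with overlap.

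Ptger4, the gene of the other Gs-coupled receptor, EP4 (chr15:5206661-5244187, reverse strand), was at 9.50, 7.59 and 7.63 CPM in SH neurons and at 12.6, 20.7 and 17.4 CPM in KA neurons. The logFC was 1.04 (p 0.0609, FDR 1). In glia it was at 6.35, 10.0 and 1.73 CPM in SH and 6.43, 11.6 and 16.3 CPM in KA, where the logFC of 0.93 (FDR 1) came with overlap. Of its exon bases, 15.3% overlap a processed pseudogene on the other strand.

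Ptger3, whose receptor EP3 lowers cyclic AMP through Gi (chr3:157566892-157645888, forward strand), was at 5.02, 6.15 and 7.10 CPM in SH neurons and 8.88, 14.7 and 14.3 CPM in KA neurons. The logFC was 1.05 (p 0.0947, FDR 1). Its glial levels were 4.42, 5.26 and 1.61 CPM in SH and 8.69, 4.02 and 1.24 CPM in KA. The lowest values of Ptger3 in both glial groups were those of replicate 3.

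Ptger1, the gene of EP1, which signals through calcium (chr8:83666678-83672753, forward strand), was at 4.0, 2.82 and 4.82 CPM in SH neurons and 3.67, 2.36 and 4.21 CPM in KA neurons. In glia it was at 1.77, 2.77 and 2.36 CPM in SH and 2.09, 0.612 and 4.37 CPM in KA. Both comparisons overlapped (FDR 1 in each). The default counting drops reads that more than 1 gene could claim, so the low level of Ptger1 is uncertain. The 4 receptors together had 18.8 to 20.9 CPM in SH neurons and 28.2 to 42.4 CPM in KA neurons, and Ptger4 and Ptger3 made up most of this sum per kilobase in each library of neurons.

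**Figure D4:**
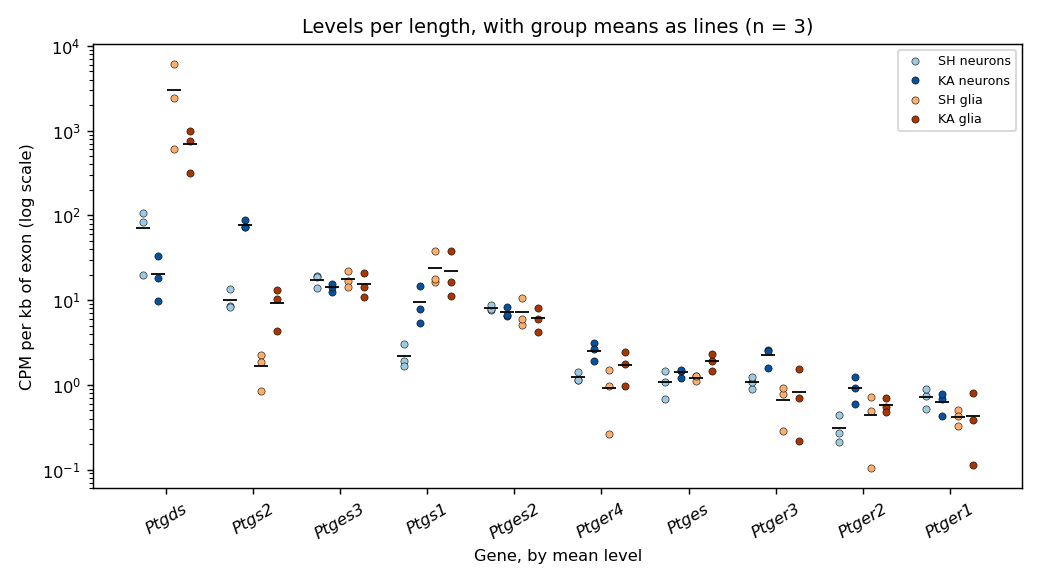
CPM per kilobase of exon on a log scale for the 10 genes, ordered by their mean; points are libraries, lines the mean of 3, and colours the 4 groups. Ptgds in glia lies above all other values, Ptgs2 in KA neurons follows at a mean of 78.0, and the 4 receptors and Ptges lie at the bottom.

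Ordered by CPM per kilobase of exon, SH neurons had Ptgds first (70.1 ± 45.0, SD, n = 3), then Ptges3 (17.3 ± 3.00), Ptgs2 (10.1 ± 2.98), Ptges2 (8.05 ± 0.54) and Ptgs1 (2.21 ± 0.74). Of these neighbours only Ptgs2 and Ptges2 lay within 1 SD of each other. Below them Ptger4 (1.24 ± 0.164), Ptges (1.08 ± 0.381) and Ptger3 (1.07 ± 0.183) lay within 1 SD of each other. Ptger1 (0.711 ± 0.183) was more than 1 SD below Ptger3, and Ptger2 was last at 0.305 ± 0.119. In KA neurons Ptgs2 was first (78.0 ± 8.76), followed by Ptgds (20.5 ± 12), Ptges3 (14.2 ± 1.53), Ptgs1 (9.38 ± 4.90) and Ptges2 (7.17 ± 1.02), where each of these 4 was within the spread of the next.

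In glia Ptgds was first in SH (3040 ± 2799) and in KA (689 ± 341), and Ptgs1 (24.1 ± 12.5 and 21.9 ± 14.4) and Ptges3 (17.9 ± 4.01 and 15.4 ± 5.19) came next without differing beyond their spread. Ptgs2 was the fifth in SH glia (1.67 ± 0.74), below Ptges2 (7.28 ± 3.01), and the fourth in KA glia (9.24 ± 4.48), above Ptges2 (6.08 ± 1.95) but within its spread.

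Between neurons and glia of the SH mice, 3 of the 10 members were called. Ptgs2 was higher in neurons, as 12.3% of all genes were, and Ptgs1 and Ptgds were higher in glia, as 7.57% were. These 3 calls held in each of the 6 fits that left out an SH library. The other 7 members had an FDR between 0.672 and 0.975 and logFC between -0.52 and 0.75.

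Of 35 further genes of the pathway found in the table (release of arachidonic acid, other terminal synthases, other prostanoid receptors, transport and breakdown, and the lipoxygenase and leukotriene branch), 34 were tested. In the edgeR fit of all 12 libraries without a block, 0 were called in neurons and 0 in glia. At an unadjusted p under 0.05 there were 4 and 3. DESeq2 gave an FDR for 27 of the 34 in neurons and called 1 down, Cysltr1, where 140 of 23000 genes were called down. In glia it gave an FDR for 22 and called 1 down, Mgll, where 602 of 18631 genes were. The medians of logFC were 0.02 in neurons and 0.00 in glia. Ptgdr, the gene of the prostaglandin D2 receptor DP1, was not tested and had 0 counts in 4 libraries and at most 46 in the others. With the replicate block, Pla2g4a and Hpgd were called up and Alox12b and Cysltr1 down in neurons, where this fit called 1.94% of all genes up and 1.11% down. In glia the block called Ptgfr, Hpgd and Cysltr2 up, 3 of 34 where 3.47% of all genes were called up, and Pla2g6, Mgll, Cbr1, Lta4h and Ltc4s down, 5 of 34 where 4.17% were. Some of these genes had few reads. Ptgfr had 14, 27 and 2 reads in SH glia and 52, 94 and 6 in KA glia. Cysltr2 had 6, 21 and 0 reads in SH glia and 18, 68 and 18 in KA glia. Cysltr1 had 16, 19 and 10 reads in SH neurons and 2, 0 and 0 in KA neurons. The genes of this paragraph were named after their values were seen.

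Among them, Hpgd, the gene of 15-hydroxyprostaglandin dehydrogenase, which breaks prostaglandins down, was the gene called by the block in both fractions (in neurons logFC 1.39, FDR 0.0904; in glia logFC 1.17, FDR 0.103). Hpgd was at 3.03, 1.01 and 4.2 CPM in SH neurons, 4.95, 5.93 and 8.55 in KA neurons, 7.56, 7.89 and 12.7 in SH glia and 18.3, 14.6 and 32.3 in KA glia. The KA libraries lay above the SH libraries in both fractions, with an FDR of 1 and 0.814 without the block. Pla2g4a, the gene of cytosolic phospholipase A2, which releases arachidonic acid, was at 2.91, 4.38 and 3.80 CPM in SH neurons and 6.66, 6.80 and 9.80 CPM in KA neurons, without overlap (logFC 1.07, FDR 1, and FDR 0.195 with the block).

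Between neurons and glia of the SH mice 13 of the 34 were called. That is 4 higher in neurons, where 12.3% of all genes were, a share of the list near this background, and 9 higher in glia, where 7.57% were. The 4 higher in neurons were Dagla and Pla2g4e, Fam213b (prostamide/prostaglandin F synthase) and Alox12b, with logFC between 1.40 and 2.38. The 9 higher in glia included Pla2g4a (logFC -3.04), the hematopoietic prostaglandin D synthase gene Hpgds (-2.30), the thromboxane synthase gene Tbxas1 (-2.64) and Hpgd (-1.77). These genes were named after their values were seen.

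The 5 genes whose log2 CPM followed Ptgs2 most closely over the 12 libraries, of 25226 compared, were Npas4 (Pearson r 0.987), Nptx2 (0.98), 1700016P03Rik (0.972), Vgf (0.968) and Cgref1 (0.967). Npas4 encodes a transcription factor, Nptx2 a neuronal pentraxin and Vgf a precursor of secreted peptides. For Ptgs1 they were Pcdh15 (0.983), Gm6089 (0.97), Gm28320 (0.968), Smad7 (0.963) and Elmo1 (0.959). For Ptgds they were Dbi (0.99), St3gal4 (0.989), Ifngr1 (0.986), Selenop (0.984) and AW047730 (0.984). The libraries fall into the 4 groups, and each point shares its depth and sorting over all genes, so these values describe the 12 libraries only.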

How the data were processed

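Nuclear mRNA of 12 libraries was analysed: NeuN+ and NeuN- nuclei of 3 pools per treatment. The RRBS libraries were not used here. After trimming and alignment to mm10 (Rsubread), the authors counted reads per gene with featureCounts at its defaults on GENCODE M16 and deposited these whole-number counts unnormalized. With these defaults the strand is not used, and a read in exons of several genes is dropped. Libraries were read as 75 bp single or 150 bp paired reads, and which is not named in the text of the paper, so that difference was not tested. Symbols, positions and exon lengths came from GENCODE M21, and the 105 of 53379 gene IDs without a symbol were left out.

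The test of counts was that of edgeR 4.0.16, with limma 3.58.1 and R 4.3.3: filterByExpr defaults (minimum count 10, minimum total 15), TMM factors, and a quasi-likelihood fit with 4 group means and legacy=TRUE. Contrasts were KA against SH in neurons and in glia, their difference, and neurons against glia in SH. Adjustment was by Benjamini-Hochberg over 37598 genes with a threshold of 0.25. Standard errors were derived from logFC and the F statistic. The test was tried on simulated data with 200 changed genes. The p values of KA against SH measure the spread between pools, estimated over the 12 libraries of both fractions together. For every contrast, the fit of all 12 libraries without a block took both libraries of a pool as independent.

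Replicate numbers were checked as pairs of KA and SH libraries. Deviations from the group means correlated across genes at 0.399, 0.264 and 0.551 (numbers 1, 2 and 3, neurons) and at 0.457, 0.543 and 0.764 (glia), so a replicate block was fitted beside the model (by pool for contrasts across the fractions). The pairing of KA and SH libraries comes from these correlations and the shared numbers. Between the NeuN+ and NeuN- libraries of a pool the deviations correlated at 0.59, 0.293 and 0.649 (KA, numbers 1, 2 and 3) and at 0.435, 0.507 and 0.638 (SH). In both treatments number 1 is the pool of 4 mice, and numbers 2 and 3 are pools of 2.

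The members, the pathway and marker lists and the tests were chosen with earlier results of these data known. Named are all 10 members, pathway genes past the threshold in neurons or glia, and for Ptgs2, Ptgs1 and Ptgds the 5 tested genes (mean at least 1 CPM) with the highest correlation (log2 CPM, prior count 2); exceptions are stated where they occur. Alternatives were the block, separate fits, other scalings and filters, DESeq2 1.42.0, edgeR 4, an FDR of 0.05, all gene IDs, and libraries left out. Plots were made in Python 3.11.15 (matplotlib 3.10.9). An annotation result that bears on Ptger1 is not reported here.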

Additional observations from a re-analysis of the deposited data

How the results depend on the processing

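Counts of members called up in neurons rose from 1 to 3 with the replicate block (Ptgs1 and Ptger2 joined) and to 2 with separate fits, upper quartile factors, at least 10 counts in every library, DESeq2 and edgeR 4, where Ptgs1 joined. Those called down in neurons went from 0 to 1 (Ptgds) with the block and with separate fits, and those down in glia from 0 to 1 (Ptgds) with the block, at least 10 counts in every library and DESeq2. Ptgs2, the 1 member up in glia, was lost without both low-input libraries and without the 4 libraries of number 3, a setting chosen after seeing the data, which left 0. The block by pool raised the members called for the difference from 0 to 1 (Ptgs1). The replicate block changed no other call of a member. Over the fits that leave out 1 library, members called up ranged from 0 (without SH neurons replicate 1) to 2 (without KA neurons replicate 1) in neurons and from 0 (without KA glia replicate 2) to 1 in glia. The cause of these changes was not tested.

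Changes of sign were found only in logFC that were not called. For KA against SH in glia, Ptges2 was at 0.043 without both low-input libraries. Ptger1 was at -0.266 with the replicate block, -0.008 with RLE size factors, -0.096 with upper quartile factors, -0.042 with at least 10 counts in every library, -0.01 with DESeq2 and -0.82 without the 4 libraries of number 3. For the difference between neurons and glia without both low-input libraries, Ptges was at 0.044, Ptges2 at -0.221, Ptgds at -0.741 and Ptger4 at -0.02. With the block Ptger1 was at 0.124 and Ptger4 at -0.117, without the libraries of number 3 Ptges3 was at 0.032 and Ptger1 at 0.636, and with no filter on low counts Ptges3 was at 0.03. Between neurons and glia in SH, Ptges2 was at -0.009 with RLE size factors and with DESeq2, -0.002 with upper quartile factors, -0.156 with at least 10 counts in every library and -0.022 without the libraries of number 3, where Ptges was at 0.108 and Ptges3 at 0.076.

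Leaving out 1 library at a time, logFC that changed sign ranged in neurons from -0.367 to 0.026 for Ptger1. In glia the ranges were -0.819 to 0.372 for Ptgs1, -0.526 to 0.236 for Ptges2, -0.814 to 0.477 for Ptger1, -0.08 to 0.974 for Ptger2 and -0.538 to 0.747 for Ptger3. For the difference they were -0.489 to 0.031 for Ptges, -0.393 to 0.361 for Ptges2, -0.249 to 0.242 for Ptges3, -0.723 to 0.862 for Ptgds, -0.671 to 0.63 for Ptger1 and -0.489 to 0.556 for Ptger4. Between neurons and glia in SH they were -0.492 to 0.066 for Ptges, -0.046 to 0.198 for Ptges2, -0.436 to 0.136 for Ptges3 and -0.988 to 0.073 for Ptger2. Depth limits the receptors, with 16 to 596 reads per library, and Ptges, with 56 to 237; 3 counts are worth 0.0896 to 0.261 CPM.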
